A study of Mus musculus with 103 samples.

Results

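The Usp17-like (Usp17l) family is a set of near-identical deubiquitinase genes on mouse chromosome 7, and its 5 protein-coding members, Usp17la, Usp17lb, Usp17lc, Usp17ld and Usp17le, were all among the 7894 genes measured in single 2-cell embryos. They were taken by name, whatever their values. All 5 passed the filter on low expression, which kept all 7894 genes in the fits with head embryos and 7782 in the whole-sperm fit, so passing it does not set them apart. The embryos, of the FVB strain, were frozen 28 hours after a sperm had been injected into the oocyte. Injected heads came from the cauda epididymis of males on a Control diet (20 embryos) or a Low Protein (LP) diet (17 embryos), or from the rete testis, the outlet of the testis, of Control (22) or LP males (23). Whole sperm were injected in 21 embryos, 9 with cauda and 12 with rete sperm, and only a header row of the deposited table gives the diet of those males, as Control. In all 6 groups the females that gave the oocytes were fed the Control diet. Fathers and injection days are not named for any embryo, so p-values measure the spread between embryos and may not carry over to other males or days.

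Deubiquitinases of the ubiquitin-specific protease class cut ubiquitin from other proteins with a catalytic cysteine, and so can spare a target from breakdown or change its activity. The mouse genes of this family are also called Dub genes. Dub1 (Usp17la) and Dub2 (Usp17lc) were first described as cytokine-induced genes of blood cell lines, and the human counterparts USP17 and DUB3 act on cell-cycle and signalling proteins such as CDC25A and RCE1. In the mouse 2-cell embryo, when the embryonic genome is switched on, many multicopy gene families are transcribed together with MERVL, an endogenous retrovirus, and Usp17l genes are known from mouse embryonic stem cells that resemble this stage.

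On GRCm38 (mm10), by the GENCODE annotation, the 5 genes lie in 2 places. Usp17ld (Dub2a, chr7:103249737-103252505, minus strand, 2 exons) and Usp17lc (chr7:103416696-103419174, plus strand, 2 exons) are neighbours with 164191 bases between them. Usp17le (Dub3, chr7:104768049-104777470, minus strand, 3 exons), Usp17lb (Dub1a, chr7:104840312-104842504, minus strand, 2 exons) and Usp17la (chr7:104857009-104862667, plus strand, 3 exons) lie 1348875 bases further on. The table names them by the RefSeq accessions NM_001001559, NM_010089, NM_001256973, NM_201409 and NM_007887. Their coding sequences, 1404 to 1635 bases long, were 90.7 to 98.4% identical in pairs over the positions where both genes had a base. Gaps, left out of these values, took 0 columns between Usp17lc and Usp17ld and 57 to 231 in the other pairs. Usp17lc and Usp17ld were the closest pair at 98.4%, and Usp17lb was the least like the others, at 90.7 to 91.3%.

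How alike the copies are decides how well short reads can be told apart, so the most conserved and the most divergent coding stretch of 60 bases are shown from the GENCODE transcripts. The conserved stretch is the same in all 5 genes and lies at coding bases 190 to 249 of Usp17lb (chr7:104841470-104841529, minus strand).
All 5 genes: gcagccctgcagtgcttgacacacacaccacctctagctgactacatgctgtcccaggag
In the most divergent stretch, at coding bases 1341 to 1400 of Usp17lb (chr7:104840319-104840378, minus strand), 20 of the 60 positions differed in at least 1 gene, and capitals mark them.
Usp17la: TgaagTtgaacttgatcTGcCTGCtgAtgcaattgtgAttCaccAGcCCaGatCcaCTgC
Usp17lb: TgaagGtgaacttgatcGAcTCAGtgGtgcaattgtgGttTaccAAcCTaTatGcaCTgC
Usp17lc: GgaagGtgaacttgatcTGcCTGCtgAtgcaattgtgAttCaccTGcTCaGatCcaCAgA
Usp17ld: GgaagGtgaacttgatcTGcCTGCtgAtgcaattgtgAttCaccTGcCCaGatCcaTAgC
Usp17le: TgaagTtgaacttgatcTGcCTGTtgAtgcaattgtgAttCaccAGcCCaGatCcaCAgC
In this stretch Usp17lb alone carried a letter of its own at 13 positions, and the other 4 genes at 0 to 2. Usp17lc and Usp17ld differed from each other at 3 of its positions.

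Of all 50-base windows of each transcript, those found nowhere else among mouse GENCODE transcripts made up 79.6% in Usp17la, 75.8% in Usp17lb, 69.2% in Usp17le, 48.9% in Usp17ld and 38.4% in Usp17lc. The deposited values of the members were mostly not whole reads. Under 300 reads, every value of every member was a multiple of 0.01 read, but whole reads were found in only 1 or 2 of the 82 head and 21 whole-sperm embryos per member, and 93.5 to 95.2% of all genes had whole reads more often. Whether reads that match several copies were divided among them is not given in the sources used here, and what part such reads have in each member's value was not tested.

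The RefSeq table of gene starts (GRCm38.p6) has an entry for 4 members, each of 300 bases, 250 before and 50 after the annotated start. Aligned in pairs, 214 to 278 of these bases stood against a base of the other gene, and 89.5 to 96.8% of those were identical. The 44 to 172 gap columns of a pair were left out of that share. The letters TATAAA, the TATA box, were found on the coding strand of Usp17lb 31 bases before its annotated start, of Usp17lc 88 bases before and of Usp17ld 110 bases before, and in 13.6% of all 32851 stretches of the same length on either strand. The same 30 bases around it are shown for the 4 genes, with the motif position in capitals; Usp17la carries A2T, counted from the start of TATAAA.
Usp17la: acaagactggagTTTAAAagactgagcatt
Usp17lb: acaaaactgaagTATAAAaggctgagcatt
Usp17lc: acaagactggagTATAAAagactgagcatt
Usp17ld: acaagactggagTATAAAagactgagcatt
The whole stretches are given for Usp17lb, the most abundant member (chr7:104842534-104842833, minus strand), and for Usp17lc (chr7:103416446-103416745, plus strand), the member of highest rho with the MERVL-linked genes in head embryos and the fourth of 5 in whole-sperm embryos, with TATAAA in capitals.
Usp17lb: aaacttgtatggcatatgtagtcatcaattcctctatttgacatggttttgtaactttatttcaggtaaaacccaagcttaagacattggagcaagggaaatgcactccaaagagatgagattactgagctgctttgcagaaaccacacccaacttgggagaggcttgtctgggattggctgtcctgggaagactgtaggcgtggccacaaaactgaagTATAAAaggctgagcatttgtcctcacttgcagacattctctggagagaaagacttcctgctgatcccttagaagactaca
Usp17lc: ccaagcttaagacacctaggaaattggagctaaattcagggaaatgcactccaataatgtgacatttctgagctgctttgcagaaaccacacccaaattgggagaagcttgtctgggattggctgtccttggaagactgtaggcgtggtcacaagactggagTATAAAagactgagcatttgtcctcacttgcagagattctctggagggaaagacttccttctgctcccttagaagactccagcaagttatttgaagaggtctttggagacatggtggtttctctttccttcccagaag
TAATCC (homeodomain factors of the OBOX and OTX type) was in none of the 4 stretches on either strand and in 7.06% of all. The letters AGATAA, bound by zinc finger factors of the GATA family, were likewise in none of the 4 and in 11.2% of all. None of the 3 motifs contains another. A match or its absence describes these letters only.

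Depth, as the step between low values gave it, lay between 529863 and 6058308 reads per embryo over the series, with group medians of 1056545 to 1197679 reads in head embryos and of 4091157 (cauda) and 2806572 (rete) in whole-sperm embryos. Values are CPM, the reads of a gene scaled to a library size common to all embryos. Of 43 MERVL-linked genes of the 2-cell stage listed as markers, 33 were in the table and their summed level ran from 3491 to 40553 CPM over the embryos. Only 2 of 9 sperm transcripts and 3 of 11 cumulus cell markers were in it. Detected genes, at 1 CPM or more, fell more than 3 median absolute deviations low in 4 embryos, of which rete LP heads 11 was the lowest with 6095. A library pools the whole embryo, so fewer cells with a transcript and less of it per cell cannot be told apart.

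Usp17lb dominated the family. It ranked 133 of the 7894 genes by mean CPM, against 1237 for Usp17lc, 2205 for Usp17la, 3486 for Usp17ld and 4473 for Usp17le. In CPM per kilobase of transcript, the scale on which genes can be set side by side, the medians in cauda Control heads were 570 for Usp17lb, 64.3 for Usp17lc, 27.5 for Usp17la, 24.5 for Usp17ld and 15.2 for Usp17le. Usp17lb was the highest of the 5 per kilobase in all but 2 embryos of the series, and Usp17lc came next in 92. The lower places were less settled, since Usp17le was lowest in 68 embryos and Usp17ld in 30. In rete LP heads Usp17ld (36.7 CPM per kilobase) stood above Usp17la (28.1), and in rete whole sperm Usp17ld (35.5) and Usp17le (34.4) had nearly the same median. Lengths are those of the GENCODE transcripts. RefSeq places the lower end of Usp17ld at chr7:103250086, where GENCODE has 103249737, so the order of the lower members may depend on the annotation, which was not tested. The transcript model of Usp17lb, at 1407 bases with 1404 coding, has almost no untranslated part, unlike the others at 1697 to 2656 bases, which raises its level per kilobase where reads also came from such parts.

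**Figure D1:**
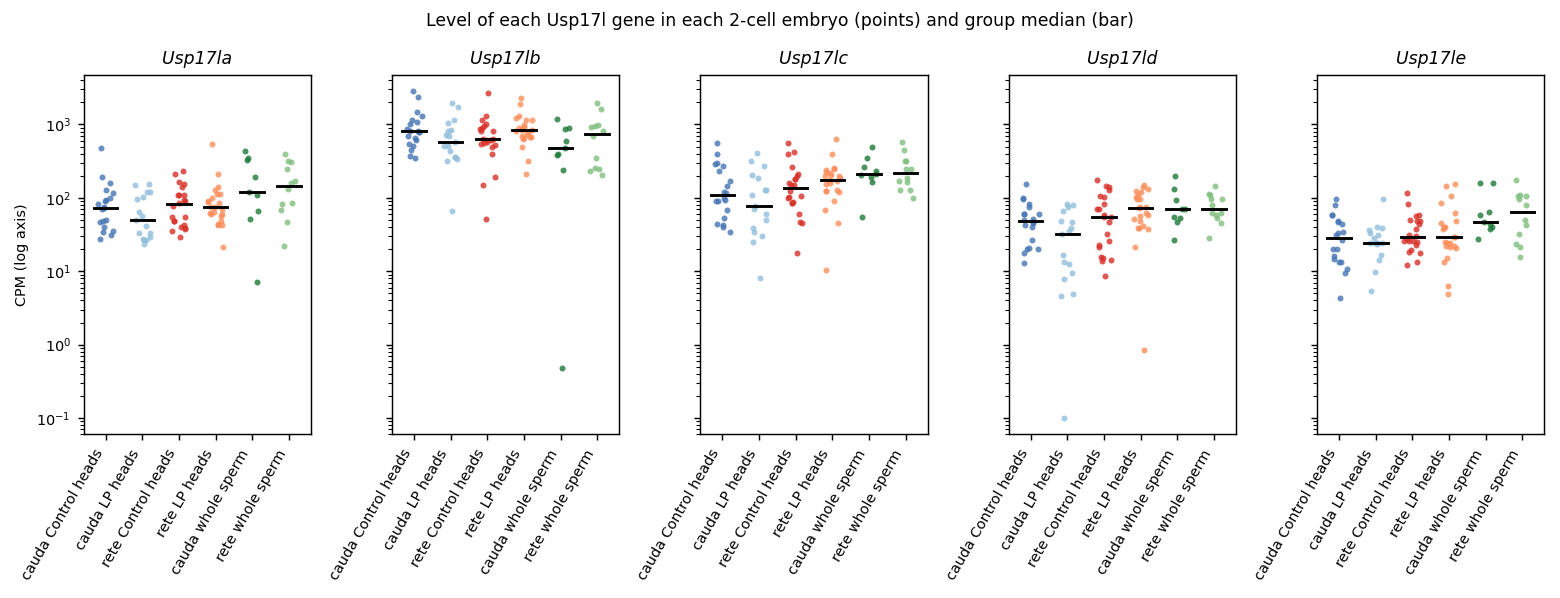
CPM of the 5 Usp17l genes in each embryo on a log axis, by group, with black bars at the group medians. Every group overlaps every other for each gene, and single points far below the rest are Usp17lb in cauda whole sperm embryo 7 (0.475 CPM) and Usp17ld in cauda LP heads embryo 2, where 0 is written as 0.1.

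In head embryos, the level of Usp17lb ran from 354 CPM over a median of 802 to 2865 in cauda Control, from 67.0 over 575 to 1977 in cauda LP, from 51.9 over 628 to 2648 in rete Control, and from 211 over 827 to 2258 in rete LP. Whole-sperm embryos held 0.475 to 1188 CPM (median 481) with cauda sperm and 206 to 1962 (median 745) with rete sperm. The 6 ranges overlapped, and embryos of 1 group differed by more than the group medians did.

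Usp17lc had medians of 109, 76.2, 136 and 178 CPM in cauda Control, cauda LP, rete Control and rete LP heads, and of 213 and 217 CPM in cauda and rete whole sperm. Its lowest values were 33.9, 7.97, 17.8, 10.4, 54.4 and 101 CPM in those groups, and its highest 561, 405, 551, 632, 500 and 570 CPM. The whole-sperm medians lay above all 4 head medians, inside the head ranges.

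Usp17la had medians of 73.2, 50.5, 81.4 and 74.6 CPM in the head groups in the same order and of 120 and 145 CPM in whole sperm, within 7.18 to 539 CPM over all embryos. Usp17ld had medians of 48.6, 32.2, 55.0 and 73.0 CPM in the head groups and of 70.7 and 70.6 CPM in whole sperm. In rete LP heads it ran from 0.844 to 149 CPM, and in cauda LP heads it was listed at 0 in embryo 2 and reached 82.9 CPM in embryo 22. Usp17le, the least abundant, had medians of 28.6, 24.6, 28.9 and 28.9 CPM in heads and of 47.4 and 64.8 CPM in whole sperm, within 4.28 to 174 CPM. For both genes all groups overlapped.

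The coefficient of variation between embryos of a group was 42.3 to 102% for the 5 genes, and counting error alone, at the median read numbers, comes to 2.24 to 19.8%. Among the 500 genes nearest in level in head embryos, 20.8% were more variable than Usp17lc, 23.8% more than Usp17ld, 36.6% more than Usp17lb, 58.4% more than Usp17la and 77.2% more than Usp17le, so the family was not uniformly variable. Differences between the 4 head groups took 2.66% (Usp17le) to 14.6% (Usp17ld) of the variance of log2(CPM + 1), and the rest lay between embryos of the same group.

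The share of each member in the family was described by group. Usp17lb made 74.2% ± 11 (SD, n = 20) of the summed CPM of the 5 genes in cauda Control heads, 73.5% ± 14.9 (n = 17) in cauda LP heads, 64.5% ± 17.6 (n = 22) in rete Control heads and 70.0% ± 9.60 (n = 23) in rete LP heads. It made 43.2% ± 19.7 (n = 9) in cauda and 53.5% ± 12.1 (n = 12) in rete whole-sperm embryos. The share of Usp17lc was 11.4 to 14.8% on average in the head groups and 25.1 and 20.5% in the whole-sperm groups. These shares, which were not tested, overlapped between all groups: the highest Usp17lb share in whole sperm was 76.3%, and 11.4% was the lowest in heads.

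**Figure D2:**
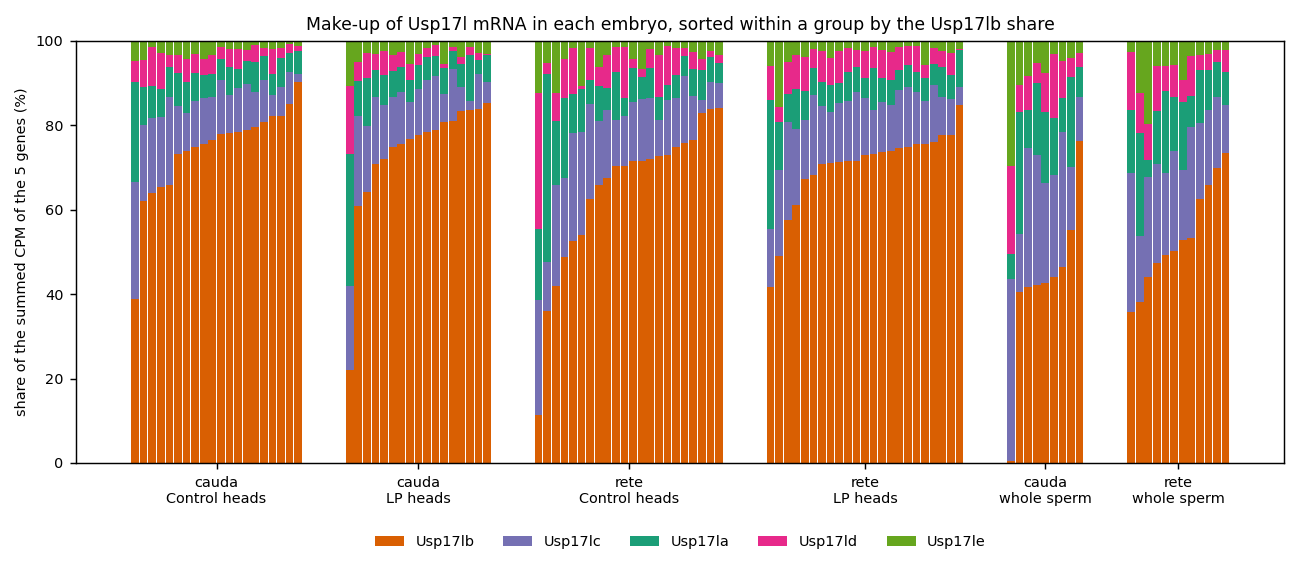
Share of each Usp17l gene in the summed CPM of the 5 (vertical axis, percent), 1 bar per embryo, grouped by condition and sorted by the Usp17lb share (orange). Usp17lb fills most of the bar in most head embryos and less in whole-sperm embryos, and in cauda whole sperm embryo 7 it is 0.378%.

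Usp17lb was a minor part of the family in 3 embryos that still held the other members. In cauda whole sperm embryo 7 Usp17lb stood at 0.475 CPM, or 1.37 reads, beside 54.4 CPM of Usp17lc, 37.3 of Usp17le, 26.2 of Usp17ld and 7.18 of Usp17la. The other members were low there too, since this value of Usp17la was the lowest of the series. Those of Usp17lc and Usp17ld were the lowest of their group. In rete Control heads embryo 14 it was at 51.9 CPM, 11.4% of the family, below Usp17ld at 147 CPM and Usp17lc at 124 CPM. In cauda LP heads embryo 13 it was at 67.0 CPM, 22% of the family, below Usp17la at 95.1 CPM. In the summed CPM of the 5 genes these embryos ranked 1, 9 and 3 from the lowest, in the order named. Counted from the lowest of the series, these embryos ranked 1, 3 and 4 in the mean log2(CPM + 1) of the MERVL-linked list, at 5.98, 6.44 and 6.51, although their detected genes, at 7730, 7293 and 7600, were within the range of the other embryos. The head embryos among them also had low ribosome biogenesis genes, at 3.07 and 3.70, where the head medians lay between 6.88 and 7.36. These embryos were picked for their Usp17lb share, and the part of those lists in it was not tested.

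The paternal LP diet was set against Control first in embryos from cauda heads, 17 against 20. All 5 members were lower on average with LP, where 52.2% of all genes were higher, and none passed the threshold, an adjusted p under 0.05 by limma over all genes tested. All differences are of mean log2(CPM + 1), given ± SE. Usp17ld differed by -1.09 ± 0.43, from a median of 48.6 to 32.2 CPM, and 12 of the 17 LP embryos lay under the median of Control (limma p = 0.0123, adjusted over all genes 0.999). Usp17lb differed by -0.54 ± 0.31, Usp17lc by -0.52 ± 0.39, Usp17la by -0.43 ± 0.31 and Usp17le by -0.09 ± 0.34. No gene of the table passed (0% called), and 2.06% had an unadjusted p under 0.05, 1 of the 5 members among them, by limma and by a permutation test. Without embryo 2 of the LP group, where Usp17ld is listed at 0, its difference was -0.82. The members go together from embryo to embryo, so a direction shared by all 5 is not 5 separate results.

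In embryos from rete heads, 23 LP against 22 Control, 4 of 5 members were higher with LP and none passed, where 1.49% of all genes did. The largest difference was that of Usp17lb, 0.47 ± 0.28 (adjusted p = 0.297), and 20 of the 23 LP embryos lay over the median of Control. Usp17ld differed by 0.38 ± 0.39, Usp17lc by 0.24 ± 0.35, Usp17la by 0.06 ± 0.28 and Usp17le by -0.02 ± 0.30, the last becoming 0.05 under quantile normalization and 0.06 under median-of-ratios scaling. No member had an unadjusted p under 0.05 by limma or permutation, while 22.9% of all genes did. Ribosome biogenesis genes leaned the same way, 32 of 34 higher with LP and 2 of them past the threshold, and MERVL-linked genes did not lean, with 18 of 33 higher and none past it.

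The source of the sperm was compared next, rete minus cauda. In Control heads, 22 against 20, no member passed, where 0.038% of all genes did. Usp17lb differed by -0.51 ± 0.29 (adjusted p = 0.285), with 13 of 22 rete embryos below the cauda median, and the other 4 members differed by 0.03 to 0.29. Unadjusted, no member had a p under 0.05 by limma or permutation, beside 22.1% of all genes.

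In LP heads, 23 rete against 17 cauda embryos, all 5 members were higher with rete heads, where 33.7% of all genes were higher. None passed (0.076% of all genes did), although 2 had an unadjusted p under 0.05 by limma and by permutation, as did 7.7% of all genes by limma. Usp17ld differed most, by 1.50 ± 0.41, a 2.83-fold difference (p = 4.69e-04, adjusted p = 0.185), from a median of 32.2 to 73.0 CPM. Of the 23 rete embryos 21 lay above the cauda median and 9 above every cauda embryo, while embryo 11, at 0.844 CPM, lay far below the rest. That embryo is the one with the fewest detected genes, and without it the difference of Usp17ld was 1.73 and passed (adjusted p = 0.0206). Without cauda LP embryo 2, where Usp17ld is listed at 0, it was 1.23 (adjusted p = 0.339). Usp17ld passed in 1 of the 40 fits that left out a single embryo, a check chosen after seeing the data. Usp17lc, its closest relative in sequence, differed by 0.88 ± 0.38 (adjusted p = 0.553), from 76.2 to 178 CPM in the median, with 20 of 23 above the cauda median. Usp17la differed by 0.52 ± 0.30, Usp17lb by 0.50 ± 0.30 and Usp17le by 0.36 ± 0.33.

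Whether the diet difference depended on the source was tested as the rete diet difference minus the cauda one. All 5 members had a positive value, as did 48.2% of all genes, and none passed (0.19% of all genes did). The values were 1.47 ± 0.57 for Usp17ld (adjusted p = 0.450), 1.01 ± 0.42 for Usp17lb (adjusted p = 0.485), 0.77 ± 0.53 for Usp17lc, 0.49 ± 0.42 for Usp17la and 0.06 ± 0.45 for Usp17le. The unadjusted p was under 0.05 for 2 of the 5 and for 9.2% of all genes. These 5 comparisons share embryos and cannot be counted as separate evidence.

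**Figure D3:**
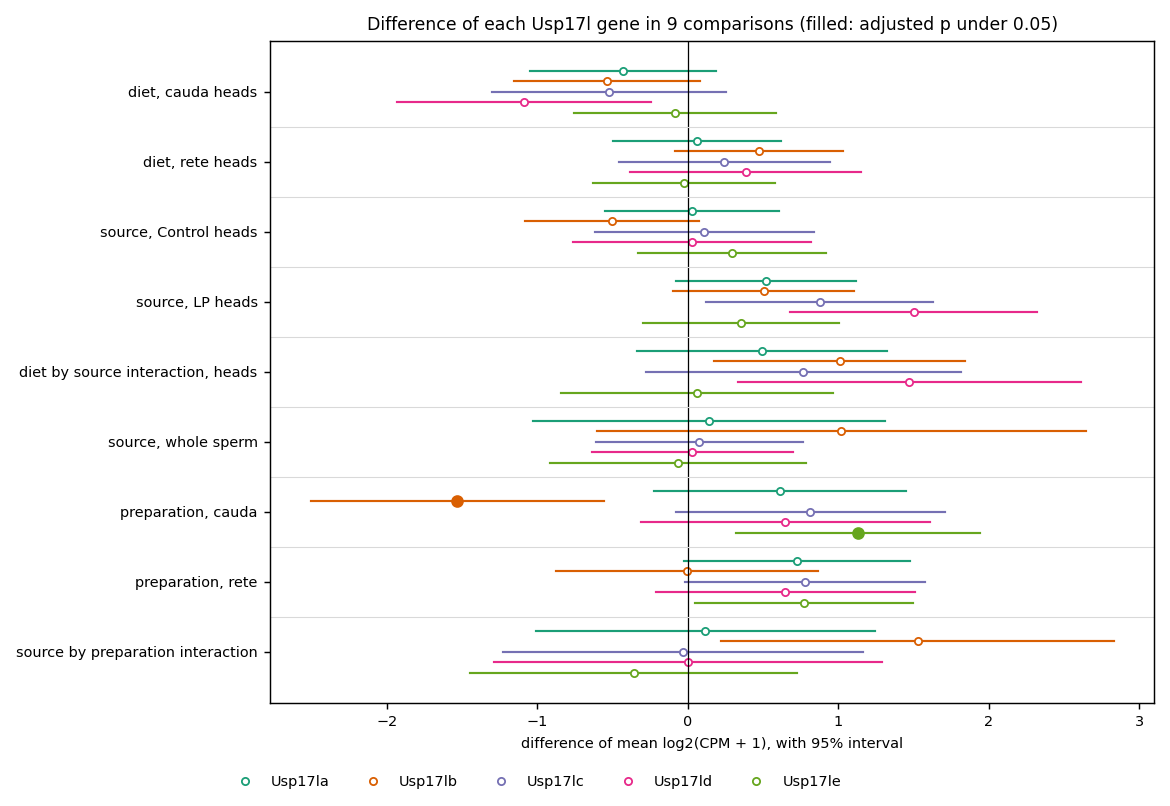
Difference of mean log2(CPM + 1) (horizontal axis) for each Usp17l gene in 9 comparisons, with 95% intervals from limma; filled points passed an adjusted p of 0.05. Filled points are Usp17lb (-1.53) and Usp17le (1.13) in cauda whole sperm against cauda Control heads, and the largest difference among the head comparisons is that of Usp17ld between rete and cauda LP heads (1.50).

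Among whole-sperm embryos, 12 rete against 9 cauda, no member passed and no gene of 7782 did (0% called). Usp17lb differed by 1.02 ± 0.79 (adjusted p = 0.721), and the other 4 by -0.06 to 0.14. The difference of Usp17lb rested on cauda embryo 7 and was 0.07 without it. No member had an unadjusted p under 0.05 by limma or permutation, beside 8.51% of all genes.

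Whole sperm was compared with heads of Control males within each source. The preparations differ across the transcriptome, as 58.7% of all genes passed for cauda (24.4% higher and 34.3% lower) and 63.4% had an unadjusted p under 0.05, so the 2 members that passed, the same 2 by the unadjusted p, are no exception. Of the genes that passed, 41.6% were higher, against 54.1% under quantile normalization, which moved the median difference of all genes from -0.08 to 0.24 and turned the direction of no member. Of the 5, Usp17le passed as higher (1.13 ± 0.41, 2.19-fold, adjusted p = 0.0138), from a median of 28.6 to 47.4 CPM, with 8 of 9 whole-sperm embryos above the head median. Usp17lb passed as lower (-1.53 ± 0.49, adjusted p = 0.00570), from 802 to 481 CPM, with 6 of 9 below the head median. The values overlapped for both, at 27.8 to 158 against 4.28 to 97.4 CPM for Usp17le and 0.475 to 1188 against 354 to 2865 CPM for Usp17lb. The call of Usp17lb rested on embryo 7: without it the difference was -0.58 (adjusted p = 0.204), and Usp17la (1.09, adjusted p = 0.0197) and Usp17lc (1.06, adjusted p = 0.0456) then passed as higher. That fit was chosen after seeing the data, and these calls stand beside the 58.7% of all genes that passed with all embryos. Usp17le passed with each of the 29 embryos left out in turn (0.96 to 1.26). By permutation neither gene passed after adjustment over 35 tests (adjusted p = 0.148 for both).

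For rete sperm, 12 whole-sperm against 22 head embryos, none of the 5 passed, where 33.6% of all genes did (14.1% higher and 19.5% lower). Usp17lc differed by 0.78 ± 0.40, Usp17le by 0.77 ± 0.37 (adjusted p = 0.0894), Usp17la by 0.73 ± 0.38, Usp17ld by 0.65 ± 0.43 and Usp17lb by -0.01 ± 0.44 (0.07 under median-of-ratios scaling). The unadjusted p was under 0.05 for 1 member by limma and for 2 by permutation, and for 44.7% of all genes. The test of whether the source difference depended on the preparation gave 1.53 ± 0.66 for Usp17lb (adjusted p = 0.192; 0.58 without cauda embryo 7) and -0.36 to 0.12 for the others, and none passed (0.861% of all genes did), with 1 member and 17.9% of all genes under 0.05 unadjusted. Summed to a single row, the 5 genes passed in none of the 9 comparisons, with differences of -0.49 to 0.77 and a smallest adjusted p of 0.425.

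Depth and developmental lists moved with the preparation. Whole-sperm embryos were sequenced more deeply, and all 34 ribosome biogenesis genes fell with cauda whole sperm and 22 with rete whole sperm, where 34.3 and 19.5% of all genes fell. A stage index, the mean log2 level of that list minus that of 30 maternal transcripts, had medians of -0.03 in cauda Control and -0.84 in rete Control heads, and of -3.41 and -2.70 in cauda and rete whole sperm. With this index as a covariate the cauda differences were 0.21 for Usp17le (adjusted p = 0.832) and -1.02 for Usp17lb (adjusted p = 0.267), and the other 3 members turned direction, Usp17la from 0.61 to -0.68, Usp17lc from 0.81 to -0.062 and Usp17ld from 0.65 to -0.071. Of all genes 593 passed in place of 4634. Preparation cannot be told apart here from depth or from the index.

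Other genes of the ubiquitin system gave a mixed picture, beside 24.4% of all genes that rose and 34.3% that fell with cauda whole sperm and 14.1% that rose and 19.5% that fell with rete whole sperm. Of 41 other Usp genes, 9 rose and 12 fell with cauda whole sperm (12 and 10 under quantile normalization), and 7 rose and 3 fell with rete whole sperm. Usp22, a histone deubiquitinase, fell by 5.68 and Usp29, an imprinted protease gene, by 4.25 on the log2 scale with cauda whole sperm, and Usp46 (1.86) and Usp2 (1.77) rose. With rete whole sperm Usp3 (1.73) and Usp6nl (1.52), which encodes a GTPase-activating protein and no protease, rose, and Usp22 (-2.27) and Usp32 (-1.12) fell. With the stage index as a covariate none of these Usp genes passed, nor did Rps27a in rete or Rhoa in cauda. Of 8 ubiquitin and ubiquitin-activating (E1) genes 5 fell with cauda and 3 with rete whole sperm, among them Rps27a, a ubiquitin fusion gene (-2.76 and -1.25), and Uba2, a subunit of the SUMO-activating enzyme (-1.74 and -0.94). Of 12 reported substrates and partners of USP17 or DUB3, known mostly from human cells, 6 fell in each and none rose, among them Rhoa, a small GTPase (-1.94 and -1.70). MERVL-linked genes went both ways, with 14 up and 12 down for cauda and 11 up and 4 down for rete, and the medians of that list, 0.25 and 0.33, were below those of the 5 Usp17l genes, 0.65 and 0.73, where all genes had medians of -0.08 and 0.03. Of 30 maternal transcripts 12 rose and 1 fell with cauda and 2 rose and 3 fell with rete whole sperm. The pair of sperm transcripts in the table gave 1 fall (Ldhc, cauda), and the 3 cumulus markers gave 1 rise and 2 falls with cauda.

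In the head comparisons few genes of these lists passed. With LP in rete heads, where 1.49% of all genes passed, 1 of 41 other Usp genes rose (Usp22, 2.26 ± 0.61, adjusted p = 0.0347). There 4 of 30 maternal transcripts and 1 of 3 cumulus markers (Serpine2) fell. Rac1, a small GTPase and 1 of 12 genes of the substrate and partner list, fell by 1.28 (adjusted p = 0.00578). Rac1 rose with rete against cauda heads of Control males (1.27, adjusted p = 0.0323), where 0.038% of all genes passed. Its diet by source value was -2.31 (adjusted p = 1.57e-04), where 0.19% of all genes passed. The Usp22 and Serpine2 calls and the Rac1 call between sources were lost with the stage index as a covariate and with 2 groups alone in the fit. No member moved past the threshold beside it.

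The 5 genes went together from embryo to embryo. Over the 82 head embryos all 10 pairs were positively correlated, with Spearman's rho of 0.40 (Usp17lb with Usp17le) to 0.81 (Usp17la with Usp17lc), a median of 0.65 and Pearson's r of 0.31 to 0.76. All 10 pairs passed a two-sided permutation test after adjustment over 10 pairs by both measures, the adjusted p of Usp17lb with Usp17le being 3.90e-04 for rho and 0.00492 for r. For 8 pairs the p of rho was 1e-05, the smallest that 100000 resamples can give. After group means were subtracted rho was 0.38 to 0.78, and without the 2 embryos farthest from the median it was 0.42 to 0.80. In the 21 whole-sperm embryos rho was 0.46 to 0.70 and r 0.31 to 0.79, with 10 pairs passing by rho and 9 by r. Without the 2 farthest embryos 6 of the 10 passed. How many pairs of other genes would pass the same test was not examined, so 10 of 10 has no baseline here. Genes outside the family also varied together with it. With the mean of the members in heads, group means subtracted, the 5 and 95% points of their rho were -0.43 and 0.43.

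Within single groups the median rho of the 10 pairs was 0.75 in cauda Control heads, 0.78 in cauda LP heads, 0.73 in rete LP heads, 0.57 in cauda whole sperm and 0.66 in rete whole sperm. It was lower, 0.39, in rete Control heads, where Usp17lb with Usp17le (-0.05) and Usp17ld with Usp17le (-0.15) were not positively related. That the groups differ in this was not tested. Over the 10 pairs, identity in coding sequence and rho in heads had a rank correlation of 0.60. The pair of lowest identity, Usp17lb with Usp17le (90.7%), had the lowest rho, and the pair of highest identity, Usp17lc with Usp17ld (98.4%), had the next to highest, 0.76, after Usp17la with Usp17lc (93.9%, 0.81). In whole-sperm embryos the rank correlation was 0.52. The pairs share members and libraries, and the part that reads common to several copies have in these values was not tested.

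Likeness to the family mean was ranked over the 82 head embryos after group means were subtracted. Highest were Pramef6 (rho 0.88 in heads and 0.77 in the 21 whole-sperm embryos), Gm13078 (0.86 and 0.74) and Gm12794 (0.79 and 0.38), which RefSeq names Pramel11, Pramel24 and Pramel19, all on chromosome 4. Pramel genes encode leucine-rich repeat proteins of the PRAME family. Gm8994 (Eif4a3l1, on chromosome 6; 0.77 and 0.39), a relative of the RNA helicase gene Eif4a3, came after these, and then Gm13083 (0.77 and 0.63), which RefSeq names Pramel21, also on chromosome 4. The list of 10 was completed by MERVL-linked genes that had been listed as such, namely Arg2, an arginase (0.76 and 0.13), Gm2016 (0.76 and 0.47), Zfp352, a zinc finger gene (0.76 and 0.46), Tdpoz3, a TRAF and BTB domain gene (0.76 and 0.68), and Gm8300 (0.76 and 0.36). The likeness of Arg2 was thus not matched in whole-sperm embryos, where 22% of all genes had a higher rho.

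Least like the family were Mrps24, a mitochondrial ribosomal protein gene (-0.71 and -0.45), Strap, a gene of the SMN complex (-0.68 and 0.04), Lactb2 (-0.65 and 0.07), Lrr1 (-0.64 and 0.17) and Mreg (-0.62 and -0.38). For 3 of these 5 the negative relation was seen in head embryos and not in whole-sperm embryos. By list, the median rho in heads was 0.55 over 33 MERVL-linked genes, 0.37 over 30 maternal transcripts, -0.04 over 41 other Usp genes, -0.15 over 12 reported substrates and partners, -0.17 over 8 ubiquitin and E1 genes and -0.33 over 34 ribosome biogenesis genes, beside -0.02 over the 7889 genes that are not members. In whole-sperm embryos it was 0.43 for MERVL-linked genes, 0.09 for maternal transcripts and -0.14 for ribosome biogenesis genes, beside -0.05 for genes that are not members. The head values describe 82 embryos that differ in depth and in the stage index, and no value carries a p. Whether that index follows developmental stage was not tested.

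**Figure D4:**
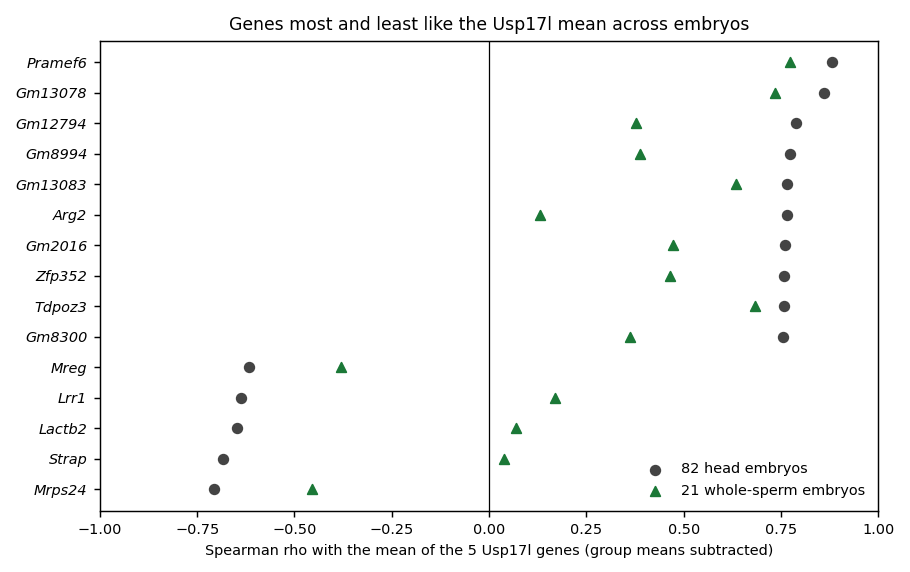
Spearman's rho with the mean of the 5 Usp17l genes after group means were subtracted, for the 10 genes most like it and the 5 least like it in 82 head embryos (circles), with the same rho in 21 whole-sperm embryos (triangles). Circles run from 0.76 to 0.88 at the top and from -0.71 to -0.62 at the bottom; triangles are nearer 0 for every gene shown.

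The relation of each member to the lists is given as a description. Usp17lc had the tightest relation to the mean log2 level of the MERVL-linked list in heads (rho 0.88), ahead of Usp17lb (0.67), Usp17la (0.66), Usp17ld (0.62) and Usp17le (0.49). The order was another in whole-sperm embryos, with Usp17le at 0.55, Usp17lb at 0.50, Usp17la at 0.48, Usp17lc at 0.42 and Usp17ld at 0.31. Maternal transcripts went with Usp17la (0.57), Usp17le (0.52), Usp17lc (0.47) and Usp17ld (0.37) in heads but hardly with Usp17lb (0.07), and the stage index gave -0.61 for Usp17la, -0.53 for Usp17le, -0.49 for Usp17lc and -0.34 for Usp17ld but -0.11 for Usp17lb. Depth gave -0.22 to -0.02 and the number of detected genes -0.13 to 0.10 in heads. In whole-sperm embryos Usp17la, the member closest to maternal transcripts in heads, gave 0.09 with them and -0.34 with the stage index.

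**Figure D5:**
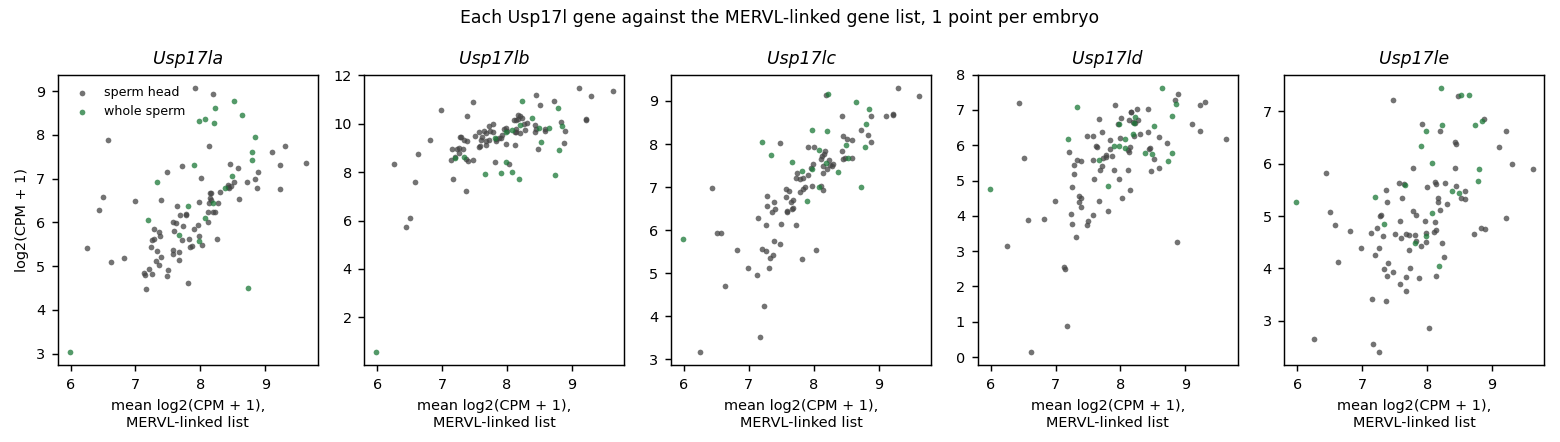
Level of each Usp17l gene, as log2(CPM + 1), against the mean log2(CPM + 1) of 33 MERVL-linked genes, 1 point per embryo (grey, 82 sperm-head embryos; green, 21 whole-sperm embryos). Usp17lc follows the list most tightly in head embryos (rho 0.88), and the point at the lower left in the Usp17lb panel is cauda whole sperm embryo 7.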

How the data were processed

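Per the labels' protocols, single embryos were lysed in TCL buffer and libraries were prepared with a Nextera kit for single cells. The submitters' processing notes name Bowtie and the mm10 build. Versions, the counting tool, the annotation and whether strand was used: not given in the sources used here. In the deposited table are 7894 genes, and no header names its unit. The values deposited by the authors were read as CPM, because the low values within an embryo fell on multiples of 1 step, taken as the worth of 1 read. A median of 86.4% of values under 60 reads were whole (range 79.9 to 89.1% over embryos, tolerance 0.001 reads), too few for a count test, and reads are not molecules. Zeros were written as 0.1 (2.49% of values).

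Groups came from the labels. Differences were tested with limma 3.58.1 in R 4.3.3 (trend, robust, two-sided) on log2(CPM + 1), with Benjamini-Hochberg adjustment over all genes that reached 5 CPM in 9 embryos. The 82 head embryos shared a fit, the 21 whole-sperm embryos had their own, and the preparation comparisons used both sets together. A fold change on this scale understates that of low genes. On simulated data with 200 changed genes and the 2 compared groups alone in the fit, limma recovered 27% of 2-fold and 75% of 4-fold changes for cauda diet (7890 genes, 7 false calls), 19 and 68% for rete diet (7894 genes, 5) and 13 and 60% for whole-sperm source (7745 genes, 5). Genes were simulated independently, and the diet tests themselves used the fit of all 82 head embryos, so their rates may differ. Permutation tests used 100000 resamples. Sequences came from GENCODE M21 transcripts and a RefSeq table of GRCm38.p6 and were aligned with MAFFT 7.526. The other software was Python 3.11.15 with pandas 2.3.3, numpy 2.4.6, matplotlib 3.10.9 and scipy 1.17.1.

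All 5 members are named whatever their values. Also named are the 10 genes most and 5 least like their mean in heads and, from each list, the 2 of smallest p per direction past the threshold, of which the text gives those that bear on the family. The members and lists were chosen with earlier results of these data known. Alternatives are given in the closing section. Protein sequences were not used here.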

Additional observations from a re-analysis of the deposited data

Results flagged for a closer look

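In cauda whole sperm embryo 7, Usp17lb stood at 0.56 on the log2(CPM + 1) scale, far below the other 8 embryos of its group. Its gap to the nearest of them, divided by the range of the group, was 0.761, above Dixon's 95% critical value of 0.493 for 9 samples. Chance passes this value in about 1 of 20 groups, and 20 such checks were made on the 9 cauda whole-sperm embryos. On the CPM scale, where the same embryo had 0.475 CPM of Usp17lb, the ratio was 0.202, under the critical value. Usp17lc and Usp17la were also lowest in this embryo, with ratios of 0.491 and 0.466 on the log2 scale, just under the critical value.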

How the results depend on the processing

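No member past the threshold changed direction under any alternative. With weights per embryo, 2 members passed for source in LP heads (Usp17ld 1.97, Usp17lc 1.16), 1 for the diet by source test (Usp17ld 1.88), 4 in place of 2 for cauda preparation and 3 in place of 0 for rete preparation, where 3.29, 0.937, 69.2 and 55.6% of all genes passed with these weights. Under quantile normalization 1 passed for rete preparation (Usp17le 0.86), where 41.1% of all genes passed in that setting. With the 4 embryos of few detected genes left out 1 passed for source in LP heads (Usp17ld 1.73), where 0.127% of all genes did. For cauda preparation 0 of the 2 passed with the stage index as a covariate, where 7.51% of all genes did, and 0 by permutation. In whole sperm 6 pairs of members in place of 10 passed without the 2 farthest embryos. In alternatives chosen after seeing the data, with single embryos left out, the number of members past the threshold ran from 0 to 1 for source in LP heads and from 2 to 3 for cauda preparation. With all embryos 0.076 and 58.7% of all genes passed in these comparisons. The number of members stayed at 0 for cauda diet without LP embryo 2, and for whole-sperm source and source by preparation without cauda whole sperm embryo 7.

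Values that changed sign had not passed in the main test, apart from Bmp15 (-0.17) and Gja1 (0.15) in cauda preparation with the stage index as a covariate. In cauda diet Usp17le became 0.011 with weights. In rete diet Usp17le became 0.0063 at a pseudocount of 5, 0.049 under quantile normalization, 0.063 under median-of-ratios scaling, 0.013 with detected genes and 0.36 with the stage index as a covariate, and 0.11 when embryos of few detected genes were left out. In the source comparison of Control heads the stage index gave -0.44 for Usp17la, -0.22 for Usp17lc, -0.22 for Usp17ld and -0.061 for Usp17le, and weights gave 0.041 for the summed family. In the diet by source test Usp17le became -0.034 with weights. In whole-sperm source median-of-ratios scaling gave -0.035 for Usp17lc and -0.079 for Usp17ld, quantile normalization -0.035 for Usp17ld and the stage index 0.046 for Usp17le. Without cauda embryo 7, Usp17la, Usp17lc and Usp17ld became -0.34, -0.17 and -0.14. In cauda preparation the stage index gave -0.68 for Usp17la, -0.062 for Usp17lc and -0.071 for Usp17ld. In rete preparation Usp17lb became 0.0071 under quantile normalization, 0.066 under median-of-ratios scaling, 0.21 with the stage index and 0.017 when embryos of few detected genes were left out. In source by preparation quantile normalization gave -0.0087 for Usp17la and -0.13 for Usp17ld, and median-of-ratios scaling -0.078 and -0.19. Usp17ld became -0.022 at a pseudocount of 5 and -0.18 with detected genes as a covariate, Usp17lc 0.48 with the stage index and 0.12 when embryos of few detected genes were left out, and Usp17le 0.18 with the stage index. Without cauda embryo 7, Usp17la and Usp17ld became -0.36 and -0.17. The cause of these changes was not tested.

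Whether embryo numbers in the titles pair the embryos was not settled. Correlations of same-numbered embryos had medians of -0.16 to 0.07 between groups, with single values from -0.44 to 0.48. They were not set beside those of differently numbered embryos, so they cannot show or exclude a pairing. With the number as a replicate block no member's call changed, and the counts stayed at 2 for cauda preparation and 0 elsewhere. The values that changed sign under the block were Usp17ld in the source comparison of Control heads (-0.013) and Usp17lb in rete preparation (0.15).

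Over all alternatives, the number of all genes past the threshold ran from 14 to 453 for rete diet (118 in the main test), from 0 to 14 for cauda diet (0), from 1 to 17 for source in Control heads (3), from 0 to 260 for source in LP heads (6), from 15 to 74 for diet by source (15), from 593 to 5463 for cauda preparation (4634), from 936 to 4393 for rete preparation (2654) and from 0 to 267 for source by preparation (68). Of the rete diet genes 26.3% were higher with LP, against 49.0% under quantile normalization and 71.3% under median-of-ratios scaling. In the shallowest embryo 1 read was worth 1.89 CPM, so low values of Usp17ld and Usp17le rest on few reads.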
